A study of Mus musculus with 4 samples.

Results

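Neutrophils of the mouse host were identified in the 3 sorted blood libraries of an scRNAseq study of spinal cord injury (SCI) in humanised mice. A cell barcode was counted as a host neutrophil when over 50% of its UMIs (unique molecular identifiers, each standing for 1 captured transcript) lay on mm10 mouse genes, the haemoglobin genes Hbb-bs, Hbb-bt, Hba-a1 and Hba-a2 took under 20% of those UMIs, and the alarmin pair S100a8 and S100a9 took at least 2%. The cells were thus selected on these measured shares, 2121 of the 22830 barcodes in the series, and S100a8, S100a9, haemoglobin and the mouse share are given as descriptions only.

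All groups were NSG-SGM3 mice, a NOD.Cg background with the Prkdcscid and IL2rgtm1Wjl mutations and the 1Eav/MloySzJ triple transgene, labelled as 15 weeks of age. These mice lack their own T, B and NK cells and carry human IL3, CSF2 and KITLG transgenes under a CMV promoter. All had been irradiated and engrafted with CD34+ cells from human cord blood. Naïve mice had no treatment and were male, sham-operated mice were male and had a T9 laminectomy, and SCI mice were a pool of male and female animals with a contusion at T9. Blood was drawn by cardiac puncture, at day 7 after surgery in the operated groups, red cells were lysed, and live huCD45+ cells were sorted by FACS. The sort was set for human leukocytes, so the mouse cells are those that passed a gate meant for other cells. Each condition had 1 library, with 34161760 to 36487994 UMIs in all, so counts carry intervals for counting error only, no test between conditions was possible, and condition, host sex and library cannot be told apart.

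Neutrophils are short-lived granulocytes that are made in the bone marrow and are the first leukocytes to reach damaged tissue. They load their granules in order during maturation, with primary granule proteases first, secondary granule proteins such as cathelicidin and lactoferrin next, and gelatinase and secretory vesicles last, and transcripts for the early proteins are largely gone by the time cells enter blood. S100a8 and S100a9 encode calprotectin, a cytosolic alarmin of neutrophils and monocytes, and Retnlg encodes a resistin-like protein of mouse granulocytes. In blood, a fraction of neutrophils carries a type I interferon signature, a set of antiviral genes switched on through the IFNAR receptor.

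The 3 defining genes lie on chromosomes 3 and 16 of GRCm38. S100a8 spans chr3:90668978-90670035 on the plus strand, S100a9 spans chr3:90692632-90695721 on the minus strand, and Retnlg spans chr16:48872621-48874496 on the plus strand. The stefin A genes, which encode cystatin-type inhibitors of cysteine proteases, lie together on chromosome 16 from Stfa2l1 at chr16:36156811-36161953 to Stfa3 at chr16:36450537-36455392. Ifit2, Ifit3, Ifit3b and Ifit1, which encode antiviral RNA-binding proteins, lie together on chromosome 19, from Ifit2 at chr19:34550694-34576419 to Ifit1 at chr19:34640871-34650009. Retnlg was named as a marker of the cells but was not used by the rule.

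Interferon-response genes were lower in SCI than in sham neutrophils, so part of the promoter is shown for 3 of them. The letters are bases 170 to 71 upstream of the transcription start, from RefSeq on GRCm38.p6, read 5′ to 3′ along the gene's strand. Capitals mark matches to GAAANNGAAA or its reverse complement TTTCNNTTTC, the core of the interferon-stimulated response element. The windows are chr19:34640719-34640818 (plus strand) for Ifit1, chr19:34583359-34583458 (plus strand) for Ifit3 and chr12:26456523-26456622 (minus strand) for Rsad2.
Ifit1: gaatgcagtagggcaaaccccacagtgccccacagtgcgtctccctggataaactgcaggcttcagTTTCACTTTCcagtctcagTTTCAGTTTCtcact
Ifit3: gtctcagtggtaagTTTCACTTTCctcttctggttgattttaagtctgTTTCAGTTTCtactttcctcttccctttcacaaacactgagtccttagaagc
Rsad2: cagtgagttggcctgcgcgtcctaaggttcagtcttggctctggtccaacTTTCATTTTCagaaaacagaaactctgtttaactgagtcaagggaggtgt
The motif was searched on both strands of the 300 bases from 250 before to 50 after each start. It occurred in 14 of the 27 genes of the type I interferon list that had a promoter sequence, out of 34 on the list, or 51.9%, and in 1079 of all 27025 genes, or 3.99%. Counted by promoter, 1131 of 32851 held it, or 3.44%. Within the list it was present in 7 of the 12 genes that were past 2-fold lower in SCI than in sham blood and in 6 of the 13 that were tested without passing 2-fold. Ifit2 had none in either of its promoters, and none was found in the 5 promoters matched among Wfdc17, Ifitm1 and the stefin genes. These matches are letters in a fixed window and not measured binding sites.

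The number of host neutrophils differed strongly between libraries. There were 44 among 8124 barcodes in naïve blood, 0.542% of the library (exact 95% Clopper-Pearson interval 0.394 to 0.726%). Sham blood held 1345 among 6962, or 19.3% (18.4 to 20.3%), and SCI blood held 732 among 7513, or 9.74% (9.08 to 10.4%). The 3 intervals do not overlap, with sham blood highest and naïve blood lowest. They cover counting error only, and how many mouse cells passed the huCD45+ gate in each sort was not tested.

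Of the rest of the mouse barcodes, those rich in haemoglobin did not follow the same order, and the others did. Mouse barcodes with at least 20% haemoglobin UMIs, called erythroid here, numbered 1350 in naïve, 412 in sham and 391 in the SCI library. Other mouse barcodes, which met neither limit, numbered 17, 233 and 107, again with sham blood highest and naïve blood lowest. Neutrophils were therefore 3.12% of mouse barcodes in naïve blood, 67.6% in sham blood and 59.5% in the SCI library. With erythroid barcodes left out, the shares were 72.1% (59.2 to 82.9%), 85.2% (83.4 to 86.9%) and 87.2% (84.8 to 89.4%). On that base the sham and SCI intervals overlap, and the naïve interval ends below both.

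**Figure D1:**
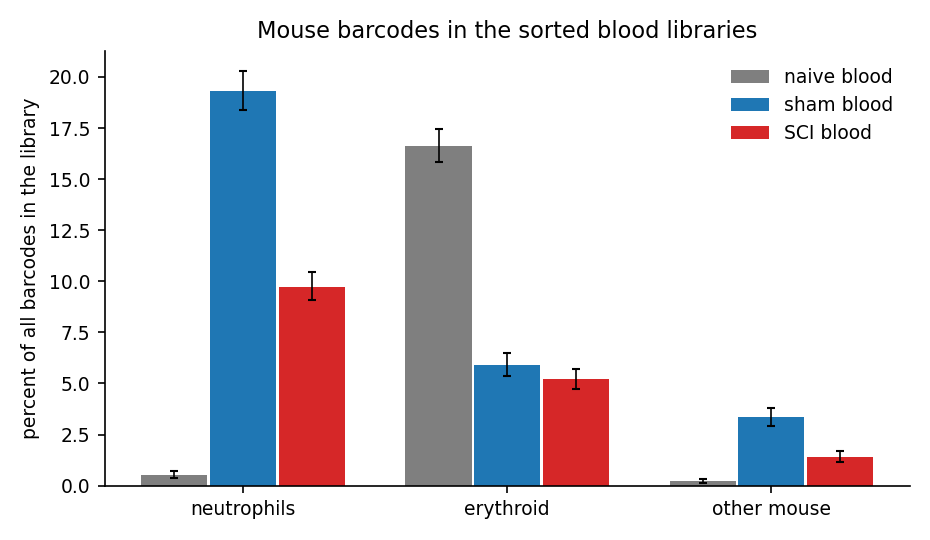
Percent of all barcodes in each sorted blood library that were host neutrophils by the rule, erythroid mouse barcodes or other mouse barcodes; bars are single libraries and error bars are exact 95% binomial intervals. The share of neutrophils was 0.542% in the naïve library, 19.3% in the sham and 9.74% in the SCI library, whereas erythroid barcodes were most frequent in naïve blood.

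Host neutrophils were small libraries, as is usual for these RNA-poor cells. The median number of mouse UMIs per cell was 1168.5 in naïve, 1823 in sham and 1635 in the SCI library, with medians of 542.5, 745 and 661.5 genes. The lowest and highest cells held 708 and 3030 UMIs in naïve, 366 and 17402 in sham, and 497 and 21150 in the SCI library. A median of 98.5 to 98.9% of their UMIs were mouse, and the median mitochondrial share was 0.570% in naïve, 0.245% in sham and 0.414% in the SCI library, compared with 2.94 to 3.12% in the other mouse barcodes. No cell barcode was shared between the neutrophils of any pair of libraries.

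The alarmin pair took a median of 14.5% of mouse UMIs in naïve, 15.9% in sham and 16.9% in SCI neutrophils. Summed over cells, S100a9 stood at 100164, 117735 and 124094 CPM and S100a8 at 43309.5 (naïve), 54674 (sham) and 60072 CPM (SCI), the 2 most abundant transcripts. CPM is counts per 1000000 mouse UMIs without ribosomal protein, mitochondrial and haemoglobin genes. Retnlg had UMIs in 38 of 44 naïve, 1100 of 1345 sham and 629 of 732 SCI cells, or 86.4, 81.8 and 85.9%, against 5.88, 11.2 and 10.3% of the other mouse barcodes. Other transcripts among the 20 with the highest mean CPM were Srgn, the granule proteoglycan serglycin, the signalling adaptor Tyrobp, Il1b, the lysozyme Lyz2, the haptoglobin gene Hp, and the ferritin chains Fth1 and Ftl1. Relative to the other mouse barcodes, and as a description only, high log2 ratios belonged to Retnlg at 6.49 (6.26 to 6.74), Stfa2 at 6.40 (5.07 to 8.90) and the granulocyte antigen Ly6g at 6.28 (5.09 to 8.33), the latter pair from 3 and 4 UMIs in the other barcodes. Camp had 168 UMIs in neutrophils and 0 in the other barcodes, at least 20.2-fold higher when the 0 is taken as up to 3 counts.

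The label was checked against marker lists. Of the 18 neutrophil markers other than S100a8 and S100a9, 17 were detected in naïve and 18 in sham and SCI cells, and every cell had at least 1 of their UMIs. The receptors of circulating neutrophils were at near-equal levels, with Csf3r, the G-CSF receptor, at 2750 CPM in naïve, 2568 in sham and 2278 in SCI cells and the chemokine receptor Cxcr2 at 1978, 2177 and 2068 CPM. Basophil and mast cell markers were at 0 in all 3 libraries, B cell markers summed to 2 UMIs, and dendritic cell markers summed to 0, 24 and 1 UMIs. Eosinophil markers summed to 1, 80 and 71 UMIs, T or NK cell markers to 6, 409 and 151, and endothelial markers to 7, 52 and 59. By these markers the label of neutrophil held for the group as a whole.

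Monocyte and platelet transcripts were the exceptions. At least 3 monocyte or macrophage UMIs were present in 1 of 44 naïve, 115 of 1345 sham and 28 of 732 SCI cells (2.27, 8.55 and 3.83%), with the 16 markers summing to 414, 725 and 519 CPM. At least 3 platelet or megakaryocyte UMIs were present in 26, 235 and 242 cells (59.1, 17.5 and 33.1%), with the 8 markers summing to 5181, 1014 and 2295 CPM. Platelet transcripts were thus highest in naïve and lowest in sham neutrophils. The part of these transcripts in the results that follow was not tested, and values without the cells carrying them are given.

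Monocyte transcripts were concentrated at the edge of the selection. Just below the limit, at 1 to 2% alarmin UMIs, lay 1 naïve, 28 sham and 16 SCI barcodes, and just above it, at 2 to 3%, lay 2, 32 and 13. Sham barcodes carried a mean of 25.5 monocyte-marker UMIs at 1 to 2%, 20.3 at 2 to 3%, 5.14 at 3 to 5% and 0.865 at 5 to 10%. SCI barcodes carried 18.6, 7.69, 1.12 and 0.821 over the same steps. Selected cells near the limit were therefore mixed in type, and those above 5% carried about 1 such UMI or fewer.

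**Figure D2:**
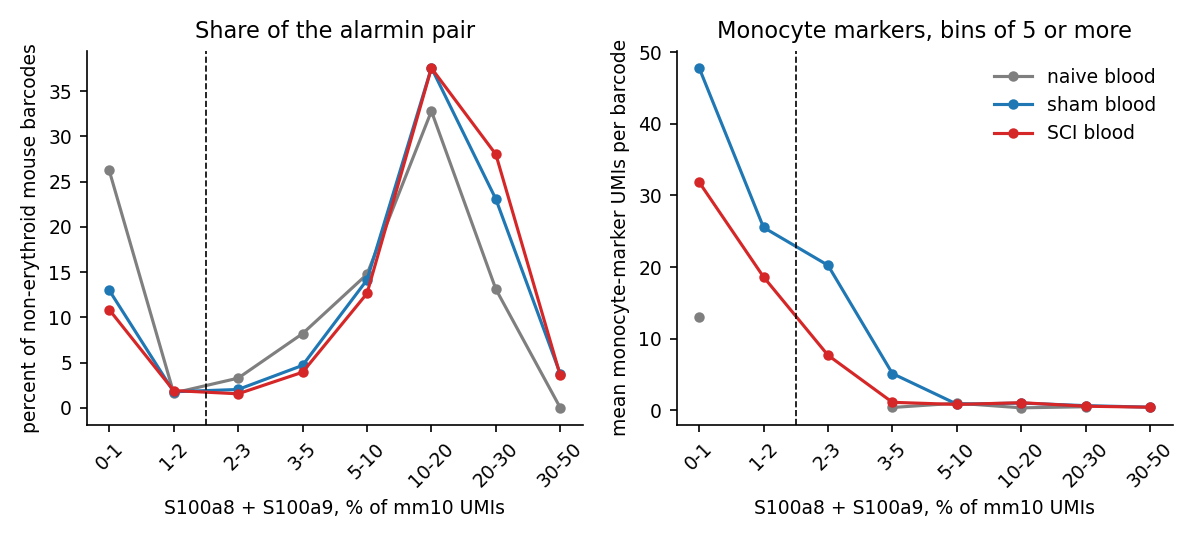
Left, percent of non-erythroid mouse barcodes by the share of UMIs on S100a8 and S100a9; right, mean number of UMIs on 16 monocyte or macrophage markers per barcode, for bins of 5 barcodes or more. Points are single libraries and the dashed line is the 2% limit. Monocyte-marker UMIs fall from 20.3 to 0.865 in sham blood between the 2 to 3% and 5 to 10% bins.

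The comparison of SCI with sham blood asks what injury to the cord adds to the surgery itself. Over the summed UMIs of 1364933 SCI and 2874545 sham transcripts, 4814 genes had at least 50 counts, and their median log2 ratio was -0.15 with 10th and 90th percentiles of -0.62 and 0.33. Past 2-fold higher in SCI were 62 genes, 1.29% of those tested, and past 2-fold lower were 114, or 2.37%. The counting interval of each of these ratios lay beyond 0, which the 50-count minimum and the 2-fold size make near certain at these totals. These intervals do not cover UMIs that are concentrated in a few cells. Type I interferon genes lay on the low side, and stefin A genes, Wfdc17 and Ifitm1 lay on the high side.

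Of the 34 type I interferon genes, a list chosen with earlier results of these data known, 30 were tested. In SCI relative to sham neutrophils 29 were below 0, 13 were past 2-fold lower against the 2.37% of all tested genes, and 0 were past 2-fold higher. For 26 the whole interval was below 0. The median log2 ratio was -0.81, beside -0.15 over all tested genes, and the list summed to a log2 ratio of -0.58 (-0.62 to -0.54). In the other mouse barcodes of the same libraries, which numbered 233 and 107, 17 of 27 tested list genes were below 0 and the median was -0.07, equal to the median of all genes there. The difference between neutrophils and other mouse barcodes was not tested.

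Among the genes of the IFIT proteins, Ifit3 stood at 151 CPM in naïve, 180 in sham and 31.5 in SCI cells, from 8, 517 and 43 UMIs, and was found in 133 of 1345 sham but 18 of 732 SCI cells. Its log2 ratio of SCI over sham was -2.50 (-3.00 to -2.06). Ifit1 stood at 396, 208 and 66.7 CPM, with a log2 ratio of -1.63 (-1.97 to -1.32). Ifit2 was at -2.70 (-4.14 to -1.70) from 7 SCI and 102 sham UMIs, and Ifit3b, a relative of Ifit3 with which reads may be confused, was at -1.90 (-2.62 to -1.30). All 4 of these chromosome 19 genes were therefore past 2-fold lower. Ifit2 rested on few cells, 24 in sham and 2 in SCI blood.

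Other effectors and regulators of the response were lower as well. Isg15, a ubiquitin-like modifier that is conjugated to proteins after interferon exposure, was at 565 CPM in naïve, 676 in sham and 302 in SCI cells, with a log2 ratio of -1.16 (-1.32 to -1.01) between SCI and sham. Rsad2, which encodes the antiviral enzyme viperin, was at 283, 232 and 84.3 CPM with a ratio of -1.45 (-1.76 to -1.17). Irf7, the transcription factor that amplifies interferon production, was at 207, 257 and 113 CPM with a ratio of -1.18 (-1.45 to -0.93). Usp18, which removes Isg15 and restrains IFNAR signalling, was at -1.44 (-2.26 to -0.76), and the Schlafen gene Slfn5 at -1.50 (-1.82 to -1.21). The signal transducer Stat2, at -0.85 (-1.64 to -0.17), was lower by less than 2-fold.

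Not every gene of the list was lower. Oasl2, an oligoadenylate synthetase-like gene, was at 471 CPM in naïve, 472 in sham and 471 in SCI cells, and its ratio of SCI over sham was centred on 0 (-0.14 to 0.13). Trim30a was at -0.01 (-0.15 to 0.14), Gbp7 at 0.06 (-0.30 to 0.40) and the membrane restriction factor Ifitm3 at -0.16 (-0.24 to -0.09). These 4 genes lay at or near the all-gene median, while the IFIT genes, Herc6, Slfn5 and Rsad2 lay farthest from it. Ifitm1 and Ifitm2, relatives of Ifitm3 that were not on the list, were higher in SCI than in sham cells. Ifitm1 was at 1432 CPM in sham and 4927 in SCI cells. Ifitm2 was at 3108 CPM in naïve, 4267 in sham and 5389 in SCI cells.

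**Figure D3:**
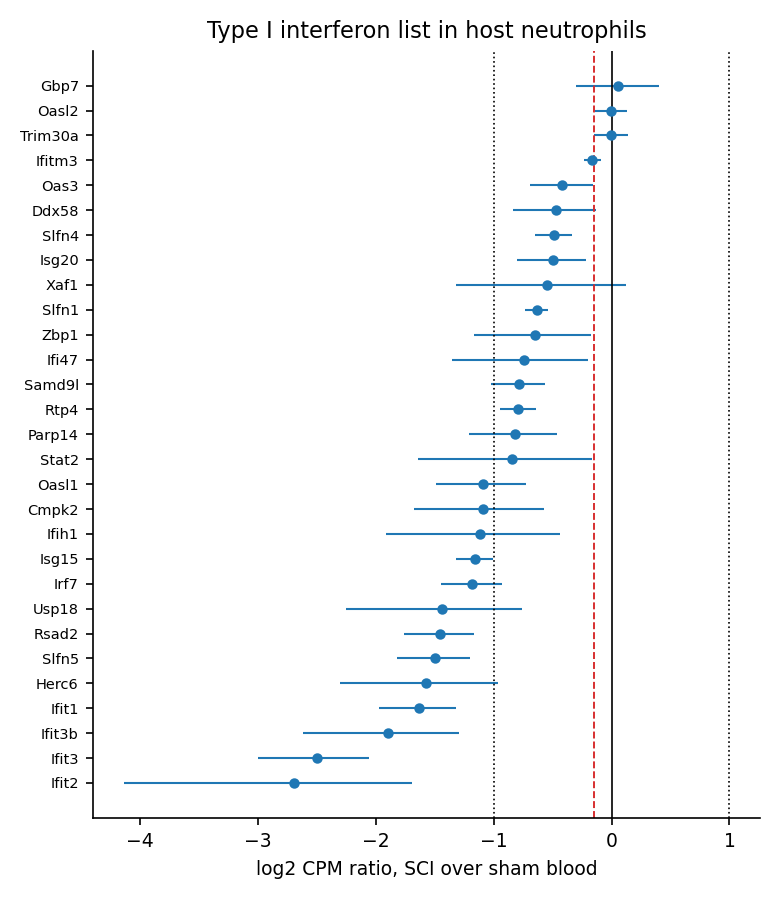
Log2 CPM ratio of SCI over sham host neutrophils for 29 of the 30 tested genes of the type I interferon list; points are ratios of summed UMIs in 1 library each and lines are exact 95% counting intervals. Dotted lines mark 2-fold, the dashed line the median of all tested genes at -0.15. The list runs from Gbp7 at 0.06 to Ifit2 at -2.70, with 28 of 29 points below 0.

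The interferon transcripts were unevenly spread over cells. With each cell thinned to 500 mouse UMIs, which left out 3 sham and 1 SCI cell that were shallower, the mean number of list UMIs was 3.95 in naïve, 3.91 in sham and 2.66 in SCI cells. Unthinned means were 8.50, 17.5 and 10.2. After thinning, cells with at least 1 list UMI were 81.8, 89.0 and 83.2%, and cells with at least 10 were 11.4% (3.79 to 24.6%) in naïve, 7.82% in sham and 3.15% in the SCI library. The 10% of cells with most held 54.6% of list UMIs in naïve, 36.9% in sham and 33.6% in the SCI library.

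Single IFIT genes were found together in cells. In sham blood, Ifit1 was present in 59.4% of the 133 cells with an Ifit3 UMI and in 6.60% of the rest. In SCI blood it was present in 33.3% of the 18 Ifit3-positive cells and in 4.48% of the rest. Rsad2 was present in 62.4% of Ifit3-positive cells against 15.5% of the rest in sham blood, and in 66.7% against 7.70% in SCI blood. Median UMIs per cell were 2151 and 1796 in the sham groups and 1624 and 1635 in the SCI groups, so Ifit3-positive cells were deeper than the rest in sham blood and not in SCI blood. The same transcripts were rare in human barcodes, where Ifit3 UMIs occurred in 0, 0.201 and 0.0637% of naïve, sham and SCI barcodes at median depths of 3695, 5260.5 and 4664 UMIs, and 2.46 to 9.89% of neutrophils held one. Rsad2 was not particular to neutrophils, since 56.9, 66.3 and 46.8% of erythroid barcodes had its UMIs.

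MHC class I and interferon gamma genes were also mostly lower in SCI than in sham cells, but by less. Of 15 tested, 13 were below 0, 1 was past 2-fold lower and 11 had intervals below 0, with a median of -0.46. H2-K1, a classical class I heavy chain, was at 320 CPM in naïve, 409 in sham and 298 in SCI cells with a ratio of -0.46 (-0.62 to -0.29), and B2m, the shared light chain, at -0.27 (-0.33 to -0.20). Irf1, at 0.27 (0.05 to 0.48), and Gbp2, at 0.39 (0.13 to 0.64), were the exceptions above 0. H2-D1 was nearly equal, at -0.10 (-0.14 to -0.05).

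The gene with the highest SCI over sham ratio was Stfa2, a stefin A gene. It stood at 56.5 CPM in naïve, from 3 UMIs in 1 cell, 72.4 in sham and 445 in SCI cells, a log2 ratio of SCI over sham of 2.62 (2.39 to 2.85), and was found in 61 of 1345 sham and 159 of 732 SCI cells. At 500 UMIs per cell the shares were 1.56% in sham and 10.1% in SCI cells. BC100530 was at 546, 445 and 1505 CPM with a ratio of 1.76 (1.66 to 1.86). Stfa3 was at 2.12 (1.70 to 2.57), BC117090 at 1.85 (1.41 to 2.32), Stfa2l1 at 0.94 (0.86 to 1.02) and Gm5483 at 0.92 (0.83 to 1.01). SCI cells were higher than sham cells for each of these 6 genes.

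Reads may be divided among the related stefin A copies, so the family was also summed. The 7 genes together held 2430 CPM (2029 to 2888) in naïve, 2270 (2215 to 2325) in sham and 5399 (5276 to 5523) in SCI cells. The log2 ratio was 1.25 (1.20 to 1.30) for SCI over sham, 1.15 (0.90 to 1.41) for SCI over naïve and -0.10 (-0.35 to 0.16) for sham over naïve. At 500 UMIs, 31.8% (18.6 to 47.6%) of naïve, 41.1% (38.5 to 43.8%) of sham and 57.0% (53.4 to 60.7%) of SCI cells had a stefin UMI. Stfa2 and BC100530 shared cells: 80.3% of Stfa2-positive sham cells and 79.9% of Stfa2-positive SCI cells held BC100530, against 20.64 and 24.96% of the rest.

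A pair of other genes with high levels separated SCI from sham cells. Wfdc17, which encodes a WAP-domain protein of myeloid cells, was at 1601 CPM in naïve, 1085 in sham and 5454 in SCI cells, with a log2 ratio of SCI over sham of 2.33 (2.27 to 2.39). Thinned to 500 UMIs, 11 of 44 naïve, 23.03% of sham and 69.4% of SCI cells held it. Ifitm1, an interferon-induced transmembrane gene that was not on the interferon list, was at 1564, 1432 and 4927 CPM, with a ratio of 1.78 (1.73 to 1.84) and thinned shares of 29.5, 31.7 and 63.3%. In human barcodes, which should lack both, Wfdc17 had UMIs in 0.164, 1.33 and 2.36% and Ifitm1 in 0.0745, 1.89 and 2.18% at greater depth. Wfdc17 and Ifitm1 were therefore present in most SCI neutrophils and in a minority of thinned sham neutrophils.

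**Figure D4:**
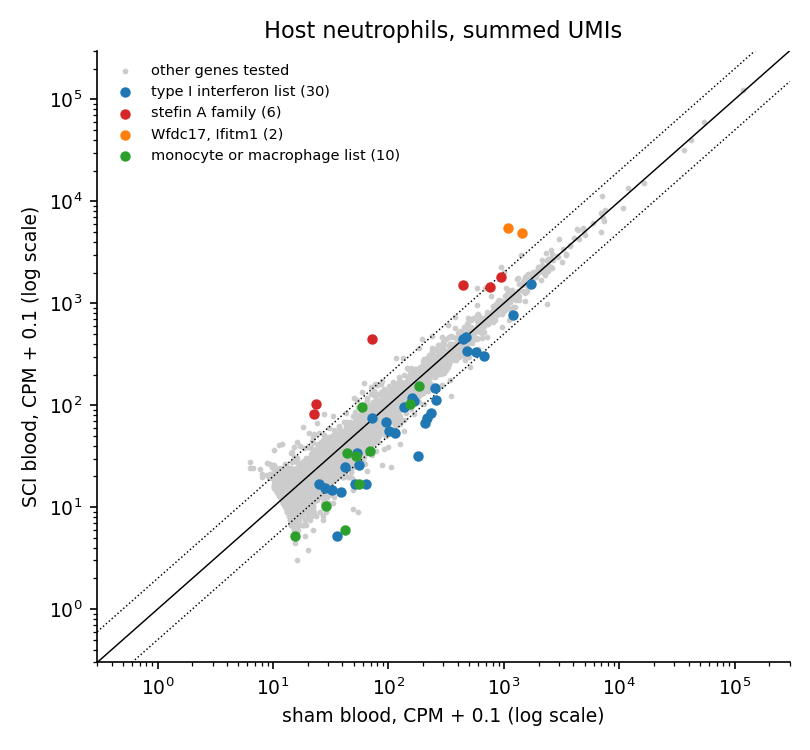
CPM of summed host neutrophils in sham (x) and SCI (y) blood for the 4814 tested genes, both axes logarithmic with 0.1 CPM added. The solid line is equality and dotted lines are 2-fold. Most interferon genes lie below equality, 6 stefin A genes, Wfdc17 and Ifitm1 lie above it, and most monocyte-list genes lie below it.

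Further genes on the high side included Anxa1, the glucocorticoid-induced mediator annexin A1, at 1884 CPM in naïve, 1409 in sham and 2985 in SCI cells with a ratio of SCI over sham of 1.08 (1.02 to 1.15). Wfdc21, another WAP-domain gene, was at 527, 680 and 1424 CPM with a ratio of 1.07 (0.98 to 1.16). Retnlg was at 7818, 7086 and 11347 CPM with a ratio of 0.68 (0.65 to 0.71), and Ltb4r1, the leukotriene B4 receptor, at 0.91 (0.64 to 1.18). Prnp at 1.74 (1.23 to 2.28), Zfp36l1 at 1.56 (1.14 to 2.00), Tpm2 at 1.47 (1.01 to 1.95) and Bin1 at 1.43 (0.85 to 2.02) completed the 10 highest ratios. These 4 rested on 46 to 111 UMIs in each library and were found in under 100 cells of either.

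Tpm2 and Bin1 moved with platelet transcripts, with Tpm2 at 226 CPM in naïve, 24.0 in sham and 66.7 in SCI cells and Bin1 at 245, 16.002 and 43.2 CPM. The 6 tested platelet genes were above 0 in SCI over sham, with a median of 1.09 and 4 past 2-fold higher. Pf4, platelet factor 4, was at 2468, 591 and 1414 CPM. Without the cells that carried at least 3 platelet UMIs, the number of genes past 2-fold higher dropped from 62 to 26, while Stfa2, Wfdc17, Ifitm1, Ifit3, Isg15 and Rsad2 remained past 2-fold in the direction given.

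Granule genes did not move together. Of 10 tested secondary granule genes 3 were past 2-fold lower in SCI and 0 past 2-fold higher, with a median of -0.57, or -0.12 without cells over 5000 UMIs and 0.03 with cells thinned to 500 UMIs. Camp, cathelicidin, was at 18.8 CPM in naïve, 53.9 in sham and 8.79 in SCI cells with a ratio of -2.56 (-3.60 to -1.77), but it had UMIs in 27 sham and 11 SCI cells and 69.7% of the sham UMIs came from 1 cell. Without cells over 5000 UMIs the Camp ratio was -0.21. Ngp was at -1.27 (-1.66 to -0.92), or -0.24 without those cells and -0.80 when thinned, and Chil3 was at -2.05 (-2.63 to -1.56) from 37 sham and 14 SCI cells, or -0.27 without cells over 5000 UMIs. Lcn2, the siderophore-binding lipocalin, was at 2129, 2120 and 2657 CPM with a ratio of 0.33 (0.27 to 0.39), and the collagenase Mmp8 was at 0.38 (0.25 to 0.51). The primary granule list had UMIs in 2.27% of naïve, 0.967% of sham and 0.683% of SCI cells, so its products were at the limit of detection.

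Genes of mature and ageing neutrophils did not lie on one side. The 12 mature circulating neutrophil genes had a median ratio of 0.02, with BC100530 and Stfa2 as the pair past 2-fold. Intervals lay above 0 for 5 of them and below 0 for 4, so the median does not mean that each gene was equal. Of the 8 ageing genes, 1 had an interval above 0 and 2 below. Mmp9, the gelatinase of the tertiary granule list, was at 0.08 (-0.02 to 0.18). Cxcr4, the marrow-homing receptor of aged neutrophils, was at -0.23 (-0.61 to 0.12). Il1b was at 6028 CPM in naïve, 5941 in sham and 6098 in SCI cells, a ratio of 0.04 with an upper bound of 0.08. The intervals of these 3 ratios lie within 2-fold.

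Glycolysis and hypoxia genes lay slightly on the SCI side, with 18 of 20 above 0, 0 past 2-fold and a median of 0.24. Gapdh was at 0.41 (0.34 to 0.49), Hif1a at 0.51 (0.23 to 0.78) and the glucose transporter Slc2a1 at 0.84 (0.53 to 1.15). Cytokine receptor and JAK-STAT genes had a median of 0.13, with Socs3, the feedback inhibitor of STAT3 signalling, at 0.70 (0.59 to 0.80) and the decoy receptor Il1r2 at 0.62 (0.45 to 0.79). Among the lower genes, Ptafr, the receptor of platelet-activating factor, was at -0.70 (-0.94 to -0.48) and Itga4, the integrin chain alpha 4, at -0.55 (-0.75 to -0.35). Among the other lists, 10 of the 20 tested NADPH oxidase and antioxidant genes were above 0 with a median of -0.04, and medians were 0.05 for tertiary granule and secretory vesicle genes, -0.16 for ageing genes, -0.07 for adhesion and chemoattractant receptors, 0.01 for Toll-like receptors and the inflammasome, -0.02 for Fc receptors and adaptors, 0.22 for glucocorticoid response genes, -0.08 for heat shock genes, and -0.20 for survival genes. The 11 tested genes of the alarmin and suppressive neutrophil list other than S100a8 and S100a9 had a median of 0.15. Of these, 3 were past 2-fold higher and 2 past 2-fold lower, beside 1.29 and 2.37% of all tested genes.

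The remaining lowest ratios mixed cell types. Ccr2, the receptor that releases monocytes from marrow, was at -2.75 (-4.08 to -1.81) from 8 sham cells and 1 SCI cell, Vcan at -2.33 (-3.32 to -1.55) from 8 and 2 cells, and Ms4a6c at -1.69 (-2.41 to -1.08) from 11 and 3 cells. With the alarmin limit raised to 5% these became -0.56, 1.03 and 1.68. The 10 tested monocyte genes had a median of -0.83, with 4 past 2-fold lower and monocyte-marked cells at 8.55% of sham and 3.83% of SCI neutrophils. Ighm, an immunoglobulin heavy chain, was at -1.76 (-2.33 to -1.26) from 190 sham and 31 SCI cells, beside B cell markers that summed to 2 and 0 UMIs, and Fam105a was at -1.71 (-2.50 to -1.06).

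Comparisons with naïve blood ask what the surgery itself, with or without cord injury, changes. They rest on 53083 UMIs from 44 naïve cells, where 1 UMI is worth 18.8 CPM and a count of 0 allows up to 56.5 CPM. For sham over naïve 4186 genes were tested, 598 or 14.3% were past 2-fold higher and 520 or 12.4% past 2-fold lower, but the interval lay beyond 0 for only 41 and 115 of them. For SCI over naïve 2574 genes were tested, 184 or 7.15% were past 2-fold higher and 263 or 10.2% lower, with intervals beyond 0 for 38 and 106. Both comparisons share the naïve cells, so their values are given side by side and their likeness is not a result.

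Some inflammatory genes were on the high side of both. Cxcl2, the chemokine that draws neutrophils through Cxcr2, had 0 UMIs in 44 naïve cells, 1117 in sham cells and 484 in SCI cells, or 0, 389 and 355 CPM. With the 0 taken as up to 3 counts over the naïve group, it was at least 6.88-fold higher in sham and at least 6.27-fold higher in SCI cells. It was found in 24.5% of sham and 20.5% of SCI neutrophils, against 0.744 and 0.493% of human barcodes, and at 500 UMIs per cell in 0, 11.9 and 10.4%. Cd14, the lipopolysaccharide co-receptor, was at 923, 2132 and 2394 CPM, with log2 ratios to naïve of 1.19 (0.80 to 1.64) and 1.36 (0.97 to 1.81). Ccrl2, a chemerin-binding receptor, was at 75.4, 342 and 177 CPM, with ratios of 2.01 (0.82 to 4.06) and 1.07 (-0.14 to 3.12). Of the NF-kB list, 6 of 17 tested genes were past 2-fold higher in sham and 5 of 14 in SCI cells, against 14.3 and 7.15% of all tested genes. Intervals lay above 0 for 5 and 4 list genes, and 3 list genes in each comparison had 0 naïve UMIs. The list medians were 0.64 and 0.78, beside -0.13 and -0.16 over all genes. They were 0.40 and 0.44 with genes absent from naïve cells set at their bound. The Toll-like receptor and inflammasome list was not on one side, with 8 of 17 tested genes above 0 and a median of -0.12 in sham, and 8 of 15 and 0.10 in SCI cells. Il1b and the NF-kB inhibitor Nfkbia differed little, with Nfkbia at 716, 698 and 711 CPM.

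Immediate early genes, which switch on within minutes of a stimulus or of handling, were higher than in naïve cells in both. Fos was at 791 CPM in naïve, 1672 in sham and 1791 in SCI cells, with log2 ratios to naïve of 1.06 (0.64 to 1.55) and 1.16 (0.74 to 1.65). Dusp1, a phosphatase that shuts off MAP kinases, was at 904, 1664 and 1951 CPM, and Egr1 was at 56.5, 227 and 284 CPM, from only 3 naïve UMIs. For SCI over naïve 13 of 13 tested genes were above 0 with a median of 0.51, and for sham over naïve 10 of 14 with a median of 0.50. Between SCI and sham the median was 0.22.

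Platelet genes were on the low side of both. The 6 tested had medians of -2.66 for sham over naïve, all past 2-fold lower, and -1.64 for SCI over naïve, with 5 past 2-fold lower. Gng11, a G protein subunit abundant in platelets, was at 1846, 241 and 475 CPM, and Ppbp, the platelet basic protein, at 1130, 184 and 367 CPM. Ctla2a was at 6462, 1010 and 2030 CPM. Pf4 UMIs were also present in 64.7% of other mouse barcodes in naïve blood, against 22.3% in sham and 34.6% in the SCI library, so the platelet signal had the same order outside the neutrophils.

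The interferon list was mixed in sham and mostly lower in SCI cells relative to naïve. For sham over naïve 16 of 30 genes were above 0, with a median of 0.09, or -0.14 with genes absent from naïve cells at their bound. Past 2-fold higher were 4 and past 2-fold lower 1, beside 14.3 and 12.4% of all tested genes. For SCI over naïve 18 of 21 were below 0, 7 were past 2-fold lower and 0 higher, beside 10.2 and 7.15% of all tested genes. The interval was below 0 for 8 and above 0 for 1, with a median of -0.46 beside -0.16 over all genes. Ifit1 at -2.60 (-3.27 to -1.81), Rsad2 at -1.79 (-2.53 to -0.86) and Slfn5 at -1.63 (-2.45 to -0.58) were among the 10 lowest of SCI over naïve. Naïve levels of Ifit1 came from 21 UMIs in 4 cells. The SCI over naïve ratio was 1.76 (1.46 to 2.09) for Wfdc17, 1.65 (1.34 to 1.99) for Ifitm1 and 1.44 (0.94 to 2.04) for BC100530, beside 2.33, 1.78 and 1.76 over sham, which share the same SCI cells.

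The genes with the highest ratios to naïve were otherwise genes with 0 naïve UMIs, and their lowest folds again take the 0 as up to 3 counts. Nabp1, a single-stranded DNA binding protein, was at 0, 117 and 155 CPM, at least 2.07-fold higher in sham and 2.74-fold higher in SCI cells. Csrnp1, an immediate early nuclear protein, was at 0, 65.7 and 111 CPM, and Acod1, which makes itaconate in activated myeloid cells, at 0, 72.7 and 108 CPM, at least 1.97-fold and 1.91-fold higher in SCI cells. Ptgs2, the inducible cyclooxygenase, was at 0, 91.8 and 37.4 CPM, at least 1.63-fold higher in sham, and was -1.29 (-1.76 to -0.86) in SCI over sham. The depth of the naïve group does not resolve smaller differences.

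Sex-linked genes of the host followed the labels. Xist, the transcript of the silenced X chromosome, had 0 UMIs in naïve and sham cells and 24 UMIs in 20 of 732 SCI cells. Ddx3y on the Y chromosome was at 75.4, 63.0 and 40.3 CPM and Eif2s3y at 132, 95.7 and 49.8 CPM, lower in the pool of both sexes. Host Il3, Csf2 and Kitl had no UMIs in the neutrophils of any library.

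Host neutrophils also held UMIs on human genes, of which GH1 did not follow the others. Among neutrophils with at least 90% mouse UMIs, human GH1, growth hormone, had UMIs in 9 of 44 naïve, 615 of 1328 sham and 213 of 727 SCI cells, or 20.5% (9.80 to 35.3%), 46.3% (43.6 to 49.0%) and 29.3% (26.01 to 32.8%). Human barcodes, with medians of 3656 to 5201 human UMIs, had it in 0.209, 2.27 and 0.653%, and erythroid barcodes in 0.0741, 1.46 and 0%. Human B2M, a transcript of all human leukocytes, was in 22.7, 36.4 and 36.2% of the neutrophils and 27.9, 32.3 and 31.2% of the erythroid barcodes, a like share in each type. Thinned to 500 UMIs, GH1 was in 13.6% (5.17 to 27.4%), 25.2% (22.8 to 27.6%) and 12.9% (10.6 to 15.6%) of the neutrophils. The other mouse barcodes held GH1 in 5.88, 35.6 and 13.1%, so it was not restricted to neutrophils. Its thinned share was higher in the sham than in the SCI library, with 1 library each and intervals for counting error only. GH1 in human barcodes had the same order, at 2.27% in sham and 0.653% in SCI blood. Condition and library cannot be told apart here. As background, the cytokine transgenes of this strain were built with a human growth hormone cassette, and whether the counted GH1 came from it was not tested.

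**Figure D5:**
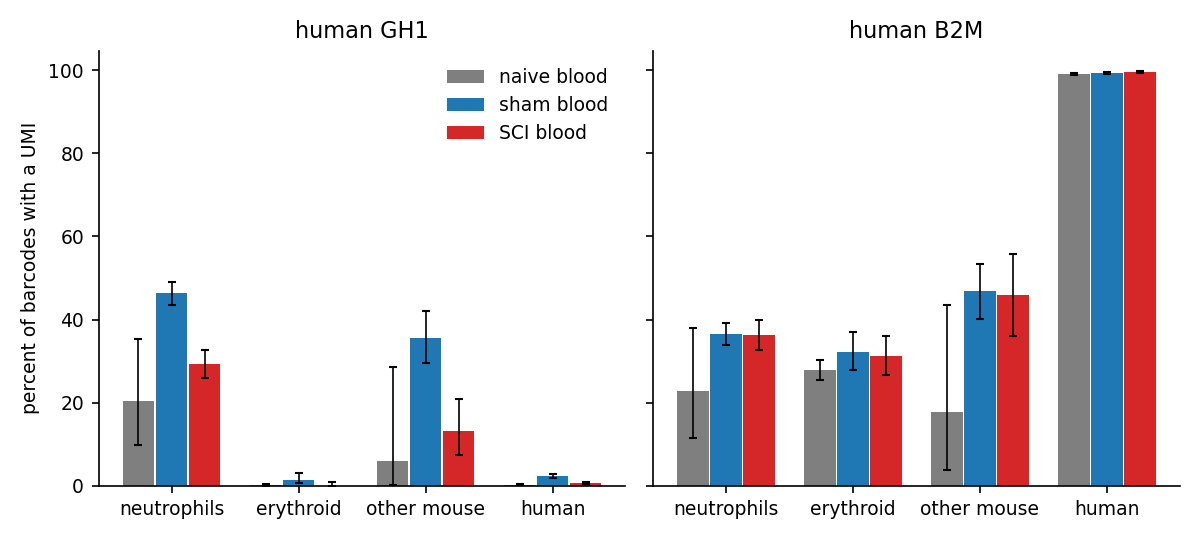
Percent of barcodes with at least 1 UMI of human GH1 (left) or human B2M (right) in host neutrophils with at least 90% mouse UMIs, erythroid mouse, other mouse and human barcodes; bars are single libraries and error bars are exact 95% binomial intervals. GH1 was found in 46.3% of sham neutrophils and 2.27% of human barcodes of the same library, whereas B2M had like shares in neutrophils and erythroid barcodes.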

How the data were processed

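scRNAseq libraries (10x Chromium 3′ v3, 1 sequencing run) were available for naïve, sham and SCI blood and for injured spinal cord, 1 library each. The authors mapped reads to a combined GRCh38 and mm10 reference with CellRanger 3.1.0 and deposited filtered matrices of raw UMI counts per gene and barcode for both species, which are the unit used here. Human cells, which the study analysed, were kept only as a comparison.

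From these counts, host neutrophils were selected by the rule given above and summed per library. The cells and gene lists were chosen with earlier results of these data known. Ribosomal protein (94), mitochondrial (13) and the 4 haemoglobin genes were left out of CPM. Log2 ratios used 0.5 added counts, at least 50 counts over both libraries and exact conditional binomial 95% intervals. "Past 2-fold" is a size, not a test. Folds against 0 used a limit of 3 counts. Per-cell shares were thinned to 500 UMIs with a fixed seed. Named genes were list genes with at least 50 counts, the 10 highest and 10 lowest ratios with at least 100 counts, the 20 highest mean CPM, and the 10 highest ratios to other non-erythroid mouse barcodes. A few further genes named in the text were chosen after their values were seen, and some genes are not reported here by name. Intervals cover counting error only, in which cells of 1 library share their source.

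No doublet caller was run. The sort excluded doublets, and 0, 17 and 5 neutrophils with over 10% human UMIs were counted. Barcodes were shared between libraries 16 times for naïve with sham, 16 for naïve with SCI and 5 for sham with SCI. Other settings covered the limits of the rule, normalisation (with edgeR 4.0.16 TMM factors, scaling only), thinning, pseudocount and count filters. Scripts, tested on simulated data, ran in R 4.3.3 and in Python 3.11.15 with pandas 2.3.3, scipy 1.17.1, matplotlib 3.10.9 and numpy 2.4.6. Positions came from GENCODE on GRCm38 and promoters from RefSeq (GRCm38.p6).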

Additional observations from a re-analysis of the deposited data

Results flagged for a closer look

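Human transcripts in host neutrophils stood out because they lie outside the mouse genes compared above and exceeded their level in human and erythroid barcodes. GH1 UMIs were found in 20.5% of naïve, 46.3% of sham and 29.3% of SCI neutrophils with at least 90% mouse UMIs, against 0.209, 2.27 and 0.653% of human barcodes. Human IL3, the product of a transgene of this strain, was found in 0 of 44 naïve cells, 3.24% of sham and 2.48% of SCI neutrophils. Human CSF2 was found in 2 of 44 naïve cells (4.55%, 0.555 to 15.5%), 7.45% of sham and 3.99% of SCI neutrophils, and human KITLG in 0 of 44, 1.88% and 3.44%. A count of 0 of 44 has an exact upper bound of 8.04%. Other mouse barcodes held GH1 in 5.88% of naïve, 35.6% of sham and 13.1% of SCI barcodes. They held CSF2 in 0 of 17 naïve, 7.30% of sham and 3.74% of SCI barcodes, near the neutrophil shares in sham and SCI blood. GH1 and CSF2 were therefore not restricted to neutrophils. IL3 and KITLG were each in 0.858% of sham and 0% of naïve and SCI other mouse barcodes. A UMI of at least 1 of these 3 cytokines was present in 2 of 9 naïve, 137 of 615 sham and 49 of 213 SCI neutrophils with GH1, against 0, 2.66 and 3.70% of those without. The highest number of GH1 UMIs in 1 neutrophil was 4, 22 and 15. Depth was not matched between cells with and without GH1, and its part was not tested.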

How the results depend on the processing

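No paired analysis was possible because each condition had 1 library and the labels carry no shared replicate numbers, and no library could be left out. Over 20 settings the median log2 ratio of the type I interferon list, SCI over sham, ranged from -1.004 to -0.67, and Stfa2 (2.42 to 2.76), Wfdc17 (2.13 to 2.47), Ifitm1 (1.59 to 1.92), Ifit3 (-2.90 to -1.97), Ifit1 (-1.83 to -1.25), Isg15 (-1.36 to -1.02) and Rsad2 (-1.65 to -1.19) were past 2-fold in each. Scaling to UMIs per member moved the median of all genes for SCI over sham from -0.15 to -0.34, and TMM factors moved it to -0.01. Settings that leave out cells by their monocyte or platelet UMIs or by depth were chosen after seeing the data.

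Leaving out platelet-marked cells, alone or with monocyte-marked cells, left 18 naïve cells, and the latter left 477 SCI cells. Counts past 2-fold higher for sham over naïve were 303 without platelet-marked cells, 285 without either, 1425 as UMIs per member, 155 thinned and 175 with pseudocount 1. For SCI over naïve they were 592 as UMIs per member, 401 with TMM, 68 thinned and 484 with at least 20 counts or with 1. For SCI over sham they were 26 without platelet-marked cells, 29 without either, 41 as UMIs per member, 24 thinned, 146 with at least 20 counts and 1721 with 1. Counts past 2-fold lower for sham over naïve were 908, 803, 76, 288 with TMM, 175 thinned, 1157 with 20 counts and 6352 with 1. For SCI over naïve they were 39 as UMIs per member, 77 with TMM, 66 thinned, 755 with 20 counts and 5365 with 1. For SCI over sham they were 244 as UMIs per member, 40 thinned, 354 with 20 counts and 1558 with 1. Fewer genes reach the minimum after thinning and more do at lower minimums; for the other settings the cause was not tested.

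The monocyte list median for sham over naïve, 1.62 as reported from genes mostly at 0 in naïve cells, reversed to -0.10 with an alarmin minimum of 5%, -0.27 without monocyte-marked cells, -0.55 without either, -0.14 without cells over 5000 UMIs and -0.20 as a mean of per-cell CPM. Vcan in SCI over sham reversed from -2.33 to 1.03 at 5%, 1.06 under a 3 MAD filter, 0.95 without monocyte-marked cells, 1.31 without either and 0.99 without cells over 5000 UMIs, and Ms4a6c from -1.69 to 1.68 at 5% and 0.99 without cells over 5000 UMIs. The cause was not tested beyond the removal of those cells. Of 1125 list medians under these settings, 1084 stayed within the median half-width of their genes' counting intervals, 36 moved and 5 reversed. Of 532 named gene values the numbers were 460, 65 and 7. Reversed means that a value of at least 2-fold changed sign, so sign changes of smaller values are not in that number. The secondary granule median for SCI over naïve blood kept its sign in 10 of 20 settings. The NADPH oxidase and antioxidant median for sham over naïve blood kept its sign in 11 of 20. The 44 naïve cells limit each comparison with naïve blood.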

Other observations

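The same rule applied to the library of huCD45+ cells from injured spinal cord found 2 of 231 barcodes, with 6018 mouse UMIs in all, too few to compare with blood. In these 2 cells Il1b had 174 UMIs, Cxcl2 88, Cd14 118 and Retnlg 6. Cord tissue, unlike blood, was also digested with papain and enriched on a magnetic column, and the part of that handling was not tested. Stfa2 and Ifit3 had 0 UMIs, which allows up to 516 CPM when taken as 3 counts.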
